A study of Mus musculus with 3 samples.

Results

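Neurogenic progenitors are retinal progenitor cells on the way to their last division and to a neuronal fate. A subset of them carries transcripts of *Sstr2*, the somatostatin receptor that the study switched on with an agonist or removed by gene deletion. Here, each of the 1351 cells that the authors annotated as neurogenic progenitors was placed by its own *Sstr2* transcripts. The 2 groups were thus chosen by the measured *Sstr2* counts of the same cells. Cells with 1 or more raw *Sstr2* UMIs (unique molecular identifiers, each a counted transcript) were called *Sstr2*-positive, and cells with 0 were called *Sstr2*-negative. There were 471 positive and 880 negative cells, out of 14611 annotated cells in the series. The P0 library held 285 positive and 384 negative cells, and the explant library held 186 and 496. No cell of the P14 library carried this annotation.

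The P0 (newborn) library pooled 5 retinas of mice on a mixed C57BL/6 and CD1 background. They were 1 *Sstr2*+/+ wild type retina, 2 *Sstr2*+/- heterozygous retinas and 2 *Sstr2*-/- knockout retinas, which carry a deletion allele in all cells. The explant library pooled 8 samples of wild type CD1 retina, dissected at embryonic day 14 and grown on membranes for 6 days with 0, 5, 50 or 500 nM of a small-molecule Sstr2 agonist, with 2 samples per concentration. Cells of each retina or sample were labelled with lipid-anchored barcodes (MULTI-seq) and sequenced together in 1 droplet-based 3' RNA library, so positive and negative cells of a sample shared every step of collection. Raw counts were summed over the positive and over the negative cells of each sample, and the pair of sums was compared within the sample. P0 was analysed first, and the explants were used as a replication in other animals.

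Sstr2 couples to inhibitory G proteins and lowers cyclic AMP when somatostatin binds it. Neurogenic progenitors switch on proneural basic helix-loop-helix factors such as Neurog2 and Atoh7, present Notch ligands to their neighbours, and then pass to factors of differentiating neurons such as Neurod1, Neurod4, Otx2 and Crx. The retinal cell cycle ends with mitosis at the outer surface, and genes for G2 and mitosis are switched on late in the cycle, after the S phase genes for DNA replication. Many G2 and mitosis genes are known to carry a cell cycle homology region (CHR, TTTGAA) near their start, often beside CCAAT boxes bound by NF-Y.

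*Sstr2* transcripts were most frequent in neurogenic progenitors in both libraries. At P0, 42.6% of neurogenic progenitors had at least 1 *Sstr2* UMI, against 5.33% of amacrine cells, 1.75% of photoreceptors, 1.29% of progenitors and 1.18% of retinal ganglion cells. The ganglion cells had the deepest profiles, a median 24853 UMIs where neurogenic progenitors had 6775, so their low share did not come with low depth. In the explants the share was 27.3% of neurogenic progenitors and between 0.5% and 2.62% of those other types. The annotation was checked against 11 markers of neurogenic progenitors. In each library 9 of the 11 had their highest CPM (the count scaled to a total of 1000000 UMIs) in this type, the exceptions being *Gadd45a* and *Gal* at P0 and *Insm1* and *Neurog2* in the explants. The last 2 were highest in explant photoreceptors and in explant cells annotated as ganglion cells, respectively. That last label is doubtful, since the paper states that its explants had no viable ganglion cells. These explant cells held the amacrine marker *Tfap2b* at 432 CPM and the ganglion cell marker *Pou4f2* at 58.6 CPM. Ganglion cells at P0 had 0 and 109 CPM.

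The share of positive cells was 30.9% for the wild type, 43.1% and 45.8% for heterozygotes and 40% and 55.5% for knockouts. Positive cells held 2.89 *Sstr2* UMIs on average for the wild type, 3.90 and 4.30 for heterozygotes and 5.73 for each knockout. Knockout retinas held *Sstr2* transcripts at a level no lower than their littermates. A 3' library counts the end of the transcript, and where the deletion lies relative to that end is not given in the sources used here, so these counts check neither genotype nor receptor protein. In the explants 15.8% to 41.3% of cells were positive, with 1.42 to 2.16 *Sstr2* UMIs per positive cell. On either side of the threshold, 384 P0 cells had 0 *Sstr2* UMIs, 70 had 1, 44 had 2 and 171 had 3 or more, up to 23. In the explants the numbers were 496, 115, 35 and 36, up to 8.

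Positive cells at P0 were deeper. They averaged 9787 ± 500.0 UMIs per cell (SD, n = 5 retinas, *Sstr2* UMIs subtracted) against 6999 ± 413 in negative cells, and were deeper in 5 of 5 retinas (exact two-sided paired permutation test, p = 0.0625, the smallest 5 pairs allow, and 0.0833 after Benjamini-Hochberg adjustment over 4 tests). Explant groups were close in depth, at 4623 ± 268 and 4490 ± 136 UMIs per cell (n = 8, 6 of 8 higher, exact two-sided paired permutation test, p = 0.164). A deeper cell is also more likely to show an *Sstr2* UMI, so depth is not independent of how the cells were chosen. The P0 contrast was therefore repeated with depth-matched cells, and its values are given beside the results.

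At P0, relative to all transcripts, levels of many G2 and mitosis genes, of *Neurog2* and *Atoh7*, and of several Notch receptor and target genes were higher in *Sstr2*-positive cells, and levels of a part of the S phase genes, of *Neurod4* and of several photoreceptor fate genes were lower. Among 6042 genes tested, 599 (9.91%) were higher and 487 (8.06%) lower in positive cells (edgeR quasi-likelihood test with the retina as a block, Benjamini-Hochberg adjusted p under 0.05). Levels per retina are given as CPM after TMM scaling of library sizes. In 423 of the 6042 genes every positive value lay above every negative value across retinas, and in 307 every positive value lay below. With positive and negative cells matched on UMI count within each retina, 458 of 5448 genes (8.41%) were higher and 377 (6.92%) lower. Nearest-neighbour matching left a gap, with positive medians of 7954 to 9944 and negative medians of 6429 to 8744.5 UMIs over the retinas. When the 2 cells of a pair had to lie within 10% of each other, medians differed little in 4 retinas and were 9447 against 8791 in the wild type, and 286 of 4168 genes (6.86%) were higher and 293 (7.03%) lower. The balance between higher and lower calls moved with the form of the values and the test, which changed together. Higher genes were 55.2% of all calls with summed counts in edgeR, and 54.2% there with DESeq2 size factors. They were 74.5% with the authors' corrected counts and 81.6% with mean log values of single cells, both tested with limma.

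G2 and mitosis genes gave the widest and most uniform difference. Of 53 tested members of this list, 52 were higher in positive cells and none was lower, with a median log2 fold change of 1.77 against -0.01 over all tested genes. Members called higher ranged from 0.28 to 3.27. *Ube2c*, the ubiquitin-conjugating enzyme of the anaphase-promoting complex, had 863, 614, 659.5, 647 and 605 CPM in the positive cells of the 5 retinas and 103, 97.6, 50.7, 53.9 and 39.1 CPM in the negative cells, in the order wild type, heterozygous 1 and 2, knockout 1 and 2. Its lowest positive value lay above its highest negative value, and the fold change was 3.27 ± 0.11 on the log2 scale (SE, adjusted p = 1.19e-26, edgeR quasi-likelihood test). The mitotic kinase gene *Plk1* (2.96 ± 0.29), the spindle gene *Aspm* (2.999 ± 0.28), the kinetochore gene *Cenpf* (2.77 ± 0.08) and *Cenpa* (2.74 ± 0.11), which encodes the centromeric histone, were also among the 10 largest rises. *Top2a*, a topoisomerase that disentangles chromosomes, and the proliferation marker *Mki67* rose by 1.61 and 1.70. *Tuba1c*, an alpha-tubulin gene, had 2.98 ± 0.20, with the limit that tubulin genes have close copies among which reads can be split.

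As a share of all UMIs, the summed list took 1.81 ± 0.202% in positive cells and 0.605 ± 0.0884% in negative cells (SD, n = 5). Retinas ranged from 1.56 to 2.09% and from 0.509 to 0.738%, without overlap. In transcripts per cell this was 177 against 42.4. With matched depth 51 members were higher, and with cells matched within 10% 41 of 47 tested members were higher with a median of 1.19 on the log2 scale. In a further comparison restricted to cells with few cell cycle UMIs (a share of UMIs in S phase and G2 and mitosis genes below the median of the neurogenic progenitors of the same sample), 10 members could be tested, 0 were called by edgeR and their median was 0.07, which follows from how those cells were picked.

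S phase genes were less uniform at P0. Of 49 tested, 20 were lower and 2 higher in positive cells, with a median log2 fold change of -0.38. Without heterozygous replicate 2 there were 12 lower calls, and DESeq2 made 8. The summed share of UMIs was 0.364, 0.472, 0.379, 0.480 and 0.484% in the positive cells (order as above) and 0.494, 0.477, 0.499, 0.655 and 0.442% in the negative cells. It was lower in positive cells in 4 of 5 retinas, by little in heterozygous 1, and higher in knockout 2. Per cell these genes gave a mean 42.8 UMIs in positive and 35.8 in negative cells, since positive cells held more UMIs in all. The replication clamp gene *Pcna* fell by 0.75 and the helicase subunit gene *Mcm6* fell by 0.90 on the log2 scale. *E2f1*, a transcription factor for S phase entry, fell from 193 to 79.1 CPM on average (-1.28 ± 0.13, adjusted p = 4.5e-11, edgeR quasi-likelihood test), and *Ung*, which removes uracil from DNA, and *Cdk6*, a G1 kinase gene, had -1.45 ± 0.20 and -1.22 ± 0.17. With matched depth 22 of 47 were lower and 0 higher (edgeR). Among G1 cyclins, partners and Cdk inhibitors, 3 of 12 were higher and 4 lower. The Cdk inhibitor genes *Cdkn2d* (1.57 ± 0.25), *Cdkn2c* (1.09 ± 0.23) and *Cdkn1b* (0.48 ± 0.12) were the 3 higher members, and the G1 cyclin gene *Ccnd1* had -0.64 ± 0.06.

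**Figure D1:**
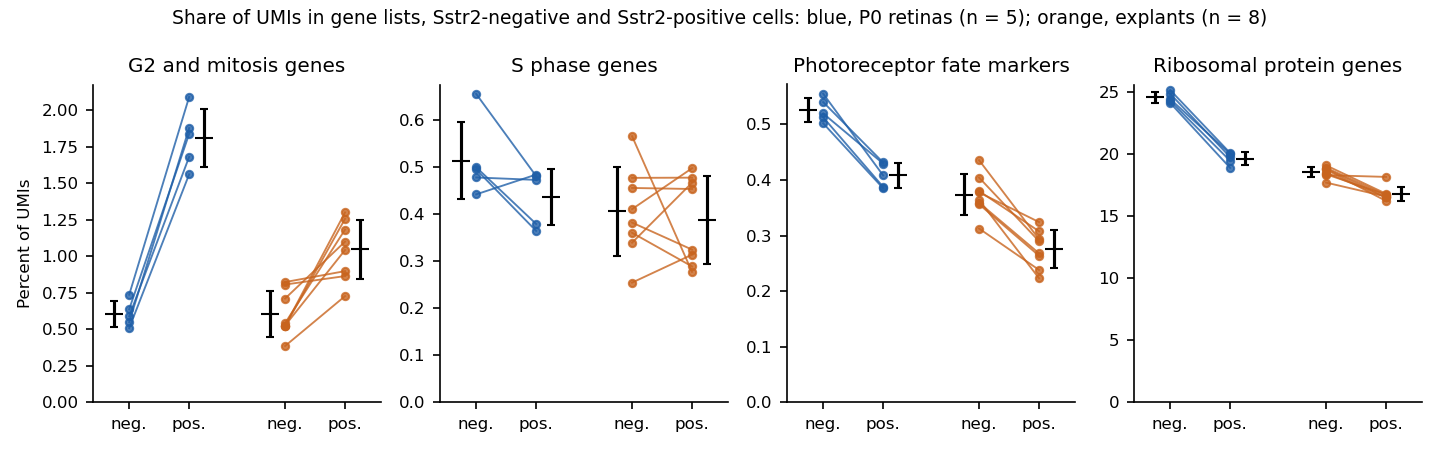
Share of all UMIs taken by the summed genes of 4 lists (G2 and mitosis, S phase, photoreceptor fate, ribosomal proteins) in each sample, in percent, for *Sstr2*-negative and *Sstr2*-positive neurogenic progenitors of the P0 retinas and the explants, with a line joining the cells of 1 sample and a black mark for the mean with its SD. G2 and mitosis genes were at 1.56 to 2.09% in positive and 0.509 to 0.738% in negative cells of the P0 retinas.

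Since the rises clustered in late cell cycle genes, the promoters of the members that rose were read for CHR letters. The promoters below, 250 bases before to 50 after the RefSeq start of the gene (GRCm38.p6, 5' to 3' on the gene's strand), are shown because *Sstr2* and *Pcdh17* define and lead the positive cells, while *Ube2c*, *Cdc20*, *Ccnb2* and *Plk1* are G2 and mitosis genes with the letters TTTGAA or TTCAAA (CHR). CHR and CCAAT or ATTGG letters are in capitals, searched on both strands, with overlapping matches counted.
Sstr2 (chr11:113619077-113619376, plus strand): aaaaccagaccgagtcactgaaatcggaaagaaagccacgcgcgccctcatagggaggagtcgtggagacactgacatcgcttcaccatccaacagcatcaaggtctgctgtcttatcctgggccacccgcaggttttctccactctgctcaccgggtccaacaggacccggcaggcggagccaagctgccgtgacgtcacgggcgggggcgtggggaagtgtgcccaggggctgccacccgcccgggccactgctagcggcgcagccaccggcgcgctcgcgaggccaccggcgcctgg
Pcdh17 (chr14:84443313-84443612, plus strand): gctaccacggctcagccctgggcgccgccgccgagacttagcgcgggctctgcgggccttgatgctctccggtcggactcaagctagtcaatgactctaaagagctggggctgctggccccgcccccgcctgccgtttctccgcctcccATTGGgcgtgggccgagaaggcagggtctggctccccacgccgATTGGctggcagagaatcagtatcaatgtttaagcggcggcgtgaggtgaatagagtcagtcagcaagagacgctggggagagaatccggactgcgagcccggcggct
Ube2c (chr2:164769679-164769978, plus strand): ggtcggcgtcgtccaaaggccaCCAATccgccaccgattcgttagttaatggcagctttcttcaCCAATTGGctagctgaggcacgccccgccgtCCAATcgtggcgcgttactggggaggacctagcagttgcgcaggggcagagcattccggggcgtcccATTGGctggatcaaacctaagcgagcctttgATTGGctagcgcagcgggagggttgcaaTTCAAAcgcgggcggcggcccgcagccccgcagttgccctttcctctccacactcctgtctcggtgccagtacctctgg
Cdc20 (chr4:118437294-118437593, minus strand): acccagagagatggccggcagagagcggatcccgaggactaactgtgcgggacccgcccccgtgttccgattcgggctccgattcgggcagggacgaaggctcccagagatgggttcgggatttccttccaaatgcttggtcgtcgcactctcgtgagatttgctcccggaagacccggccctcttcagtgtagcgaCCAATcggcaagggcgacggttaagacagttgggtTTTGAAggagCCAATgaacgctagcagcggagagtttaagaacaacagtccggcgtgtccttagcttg
Ccnb2 (chr9:70421505-70421804, minus strand): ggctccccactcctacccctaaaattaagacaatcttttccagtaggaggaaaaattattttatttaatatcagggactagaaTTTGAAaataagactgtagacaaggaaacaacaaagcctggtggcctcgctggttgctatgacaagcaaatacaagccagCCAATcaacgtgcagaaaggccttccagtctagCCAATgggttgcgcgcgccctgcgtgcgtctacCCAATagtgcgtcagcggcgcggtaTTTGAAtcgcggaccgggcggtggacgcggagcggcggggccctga
Plk1 (chr7:122159185-122159484, plus strand): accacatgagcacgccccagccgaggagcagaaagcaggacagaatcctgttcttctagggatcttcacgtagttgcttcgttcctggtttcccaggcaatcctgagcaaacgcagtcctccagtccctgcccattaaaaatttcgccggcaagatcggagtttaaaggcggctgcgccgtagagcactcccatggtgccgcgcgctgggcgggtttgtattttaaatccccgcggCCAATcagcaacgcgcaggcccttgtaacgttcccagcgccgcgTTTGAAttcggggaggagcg
The *Ube2c* match began 29 bases before the start, that of *Cdc20* 18 bases before, those of *Ccnb2* 167 bases before and 4 after, and that of *Plk1* 30 after. The *Sstr2* promoter held neither set of letters in this window, and that of *Pcdh17* held CCAAT letters 2 times and no CHR.

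Over all 27025 promoters, 18.1% held CHR letters, and over the 4780 tested P0 genes with a promoter 11.9% did. Among genes of the G2 and mitosis list that rose at P0 the share was 71.1% (32 of 45), among risen genes outside that list 21.2%, and among genes that fell 7.84%. Genes outside the list included mitotic genes such as *Plk1*, so 21.2% is not a share of genes without a mitotic role. Of S phase genes that fell, 6.67% (1 of 15) held them. CCAAT letters were in 75.6% of the risen G2 and mitosis genes, 37.9% of all promoters and 40.3% of the tested genes. E-box letters (CANNTG), which proneural factors can bind, were in 58.2% of genes that rose, 58.5% of tested genes and 72.1% of all promoters. A letter match is a description of the window and not a shown binding site.

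Outside the cell cycle, *Pcdh17*, a protocadherin gene for cell adhesion, had the largest rise among the named genes. It had 817, 533, 689, 406 and 525.5 CPM in the positive cells of the 5 retinas and 134, 63.7, 30.0, 47.7 and 54.2 CPM in the negative cells. The groups did not overlap, with 3.15 ± 0.12 on the log2 scale (adjusted p = 8.34e-24, edgeR quasi-likelihood test). With cells matched within 10% the value was 3.25, and among cells with few cell cycle UMIs it was 3.18, so it was as large in cells low in mitotic transcripts. Of the other large rises at P0, *Gas2l3* (3.14 ± 0.29), a cytoskeletal linker of dividing cells, belonged to the G2 and mitosis list. The others were *Dcdc2a* (2.87 ± 0.34), a doublecortin-domain gene, and *1700016K19Rik* (3.04 ± 0.27), a gene known by its clone name. *Penk*, the proenkephalin gene of opioid peptides, had 20.9, 32.6, 41.7, 35.6 and 33.2 CPM in the positive cells of the 5 retinas and 11.5, 17.0, 7.51, 10.4 and 9.03 CPM in the negative cells. Its counts were low, and it passed the count filter through its positive cells alone, where it was high. Each positive value lay above each negative one, by 1.53 ± 0.30 on the log2 scale, but that entry favoured such a gap. With matched depth *Penk* could not be tested.

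Proneural and neurogenic factors moved in both directions. Of 17 tested, 8 were higher and 5 lower in positive cells, and the median log2 fold change was 0.22. *Neurog2*, the proneural factor of early neurogenesis, had 545, 407, 460.3, 349 and 438 CPM in the positive cells of the 5 retinas and 184, 166, 218, 131 and 196 CPM in the negative cells. *Atoh7*, the competence factor for ganglion cells, had 485, 439, 459, 333 and 772 CPM in the positive cells of the 5 retinas and 246, 159, 141, 168 and 400.3 CPM in the negative cells. In both genes positive cells were above negative cells of the same retina in 5 of 5 retinas, by 1.31 ± 0.09 (adjusted p = 2.83e-16) and 1.19 ± 0.09 (adjusted p = 1.64e-14, edgeR quasi-likelihood test). *Atoh7* overlapped between groups across retinas, since knockout 2 was high in both. *Hes6*, an inhibitor of Hes1, rose by 0.60 and *Sox11*, a factor of young neurons, by 0.93. *Gadd45a*, a growth-arrest gene, and *Foxn4* and *Ptf1a*, factors of the amacrine and horizontal lineage, were also higher, with 1.20, 0.44 and 1.23.

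The lower members of this list included *Neurod4*, *Neurod1*, *Gadd45g* and *Sox4*. *Neurod4*, a bHLH factor of differentiating neurons, had 209, 269, 226, 412 and 299 CPM in the positive cells of the 5 retinas and 734, 658, 738, 816 and 1056 CPM in the negative cells. The groups did not overlap (-1.51 ± 0.08, adjusted p = 7.73e-19, edgeR quasi-likelihood test). *Neurod1*, which supports photoreceptor and amacrine fates, fell by 0.56, *Gadd45g*, a growth-arrest gene, fell by 0.45, and *Sox4* fell by 0.27 on the log2 scale. Of 7 tested photoreceptor fate markers, 4 were lower and 0 higher, with a median of -0.38. *Crx*, the homeobox factor of photoreceptor precursors, had 16.2, 15.4, 30.9, 12.6 and 34.8 CPM in the positive cells of the 5 retinas and 46.0, 70.0, 52.6, 60.1 and 75.2 CPM in the negative cells. Here too each positive value lay under each negative one (-1.43 ± 0.23, adjusted p = 2.97e-06, edgeR quasi-likelihood test), and *Otx2*, which acts upstream of *Crx*, and *Rorb*, a nuclear receptor of rods, fell by 0.31 and 0.42. The summed list took 0.408 ± 0.0221% of UMIs in positive and 0.526 ± 0.0215% in negative cells. Per cell the summed list gave a mean 40.04 UMIs in positive and 36.8 in negative P0 cells. For this sum the share at P0 was thus smaller and not the number. The same was not true of *Crx* and *Neurod4*, with log2 fold changes of -1.43 and -1.51. These falls were wider than the gap in depth (9787 against 6999 UMIs per cell), so both were also fewer per positive cell. In the explants, where the groups were close in depth, the list gave 12.8 UMIs per positive and 16.8 per negative cell.

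**Figure D2:**
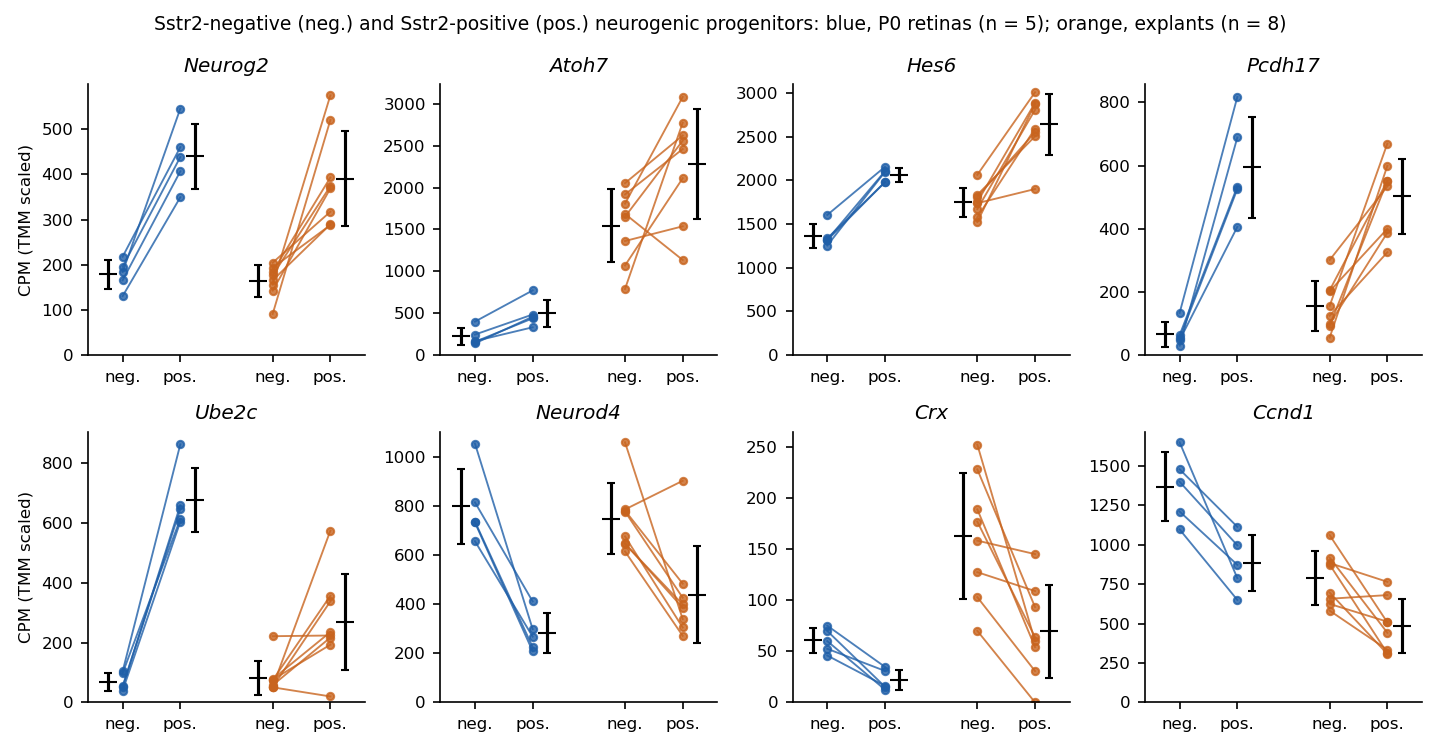
TMM-scaled CPM of 8 named genes on a linear axis from 0 in *Sstr2*-negative and *Sstr2*-positive neurogenic progenitors, with a line joining the cells of 1 retina or explant and a black mark for the mean with its SD. At P0, *Pcdh17* and *Neurog2* were higher and *Neurod4* and *Crx* lower in the positive cells of all 5 retinas.

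Part of the list of Notch receptors and targets was also higher in positive cells. This list holds *Id* genes too, and *Id1*, *Id2* and *Id4* were among its higher members. Of 11 tested Notch receptors and targets, 7 were higher and 0 lower, with a median of 0.60 on the log2 scale. With matched depth 6 of 11 were higher and 1 lower, and with cells matched within 10% 6 of 9 were higher and 2 lower. *Notch1*, the receptor, rose by 0.87, *Rbpj*, the DNA-binding partner of its cleaved form, by 0.60, the target gene *Hes5* by 0.56, and *Id1* and *Id2*, which block bHLH factors, by 0.95 and 1.30. *Hes1* had 0.41 ± 0.15 and was not called (adjusted p = 0.055, edgeR quasi-likelihood test). Of 7 Notch ligands and modifiers 2 were higher, *Dll1* (0.33, adjusted p = 0.0305) and the glycosyltransferase gene *Lfng*, and 1 was lower, *Dll3* (-0.39), whose product acts inside the signalling cell. *Dll4* and *Olig2* were tested and not called in either library. The progenitor gene *Fgf15*, the Hedgehog receptor gene *Ptch1* (-0.42 ± 0.20) and *Mxra7* could be tested at P0 and were not called there. *Gal*, the galanin gene, and *Vipr2*, a receptor gene for vasoactive intestinal peptide, were below the count filter in both libraries, and *Sst*, the somatostatin gene, had 0 UMIs in the explant cells and was not analysed at P0.

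Primary progenitor markers did not move together, with 4 of 22 higher, 4 lower and a median of -0.04. *Sox2* and *Vim*, genes of undifferentiated progenitors, rose by 0.69 and 0.65, while *Ccnd1* (above) and *Crym*, a thyroid hormone binding protein gene, with -1.30, were among those lower. The other large falls were *Sct* (-2.22 ± 0.25), the gene of the peptide secretin, *Peak1* (-1.55 ± 0.21), a pseudokinase gene, *Dach1* (-1.30 ± 0.15), a transcriptional co-repressor, and *Dhx32* (-1.19 ± 0.08), a helicase gene. *Sct* had 20.9, 11.5, 12.4, 6.28 and 14.2 CPM in the positive cells of the 5 retinas and 109, 61.5, 33.8, 66.3 and 48.2 CPM in the negative cells. Groups did not overlap in this gene, but it passed the count filter mainly through its negative cells, where it was high. That entry favoured such a gap.

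Which of these differences remained when cells were matched in depth or low in cell cycle transcripts was examined gene by gene. With cells matched within 10% and with cells of few cell cycle UMIs, respectively, the P0 log2 fold changes were 1.21 and 1.22 for *Neurog2*, 1.36 and 1.05 for *Atoh7*, 0.92 and 1.29 for *Sox11*, 0.79 and 1.04 for *Notch1* and 0.82 and 1.40 for *Hes5*. They were -1.09 and -1.12 for *Neurod4*, -1.36 and -1.67 for *Crx* and -1.48 and -1.06 for *Dach1*. All 8 were called in the same direction under both restrictions by edgeR. By contrast *Ccnd1* was -1.64 with matched depth and 0.14 in cells of few cell cycle UMIs, the latter value not being called. *Otx2* was 0.02 with cells matched within 10%, and *Hes1* was -1.10 (adjusted p = 1.77e-05) there. Cells of few cell cycle UMIs gave 4 of 7 Notch receptors and targets higher and 4 of 5 photoreceptor fate markers lower. The part of depth and of cell cycle position in the other results was not tested.

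**Figure D3:**
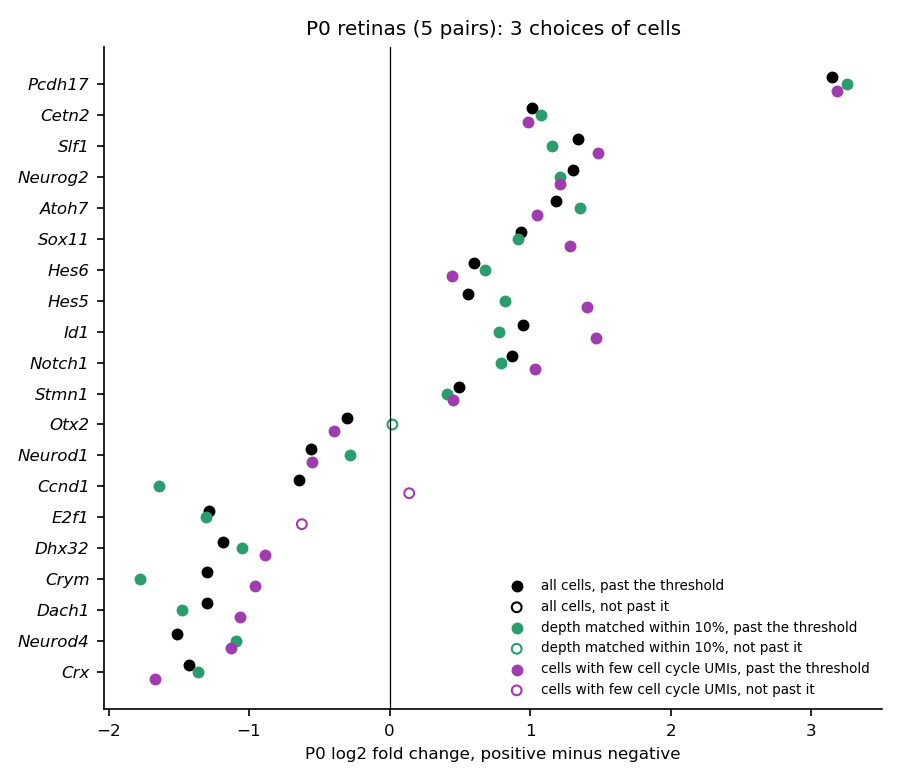
Log2 fold change at P0, positive over negative cells, for named genes with all cells, with cells matched within 10% in UMI count and with cells of few cell cycle UMIs, filled where the gene was called by edgeR and open where it was not. *Pcdh17* was at 3.15 with all cells and 3.18 in cells of few cell cycle UMIs, while *Ccnd1* went from -0.64 to 0.14.

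Neurog2 was the transcript that the study examined together with *Sstr2*, so the share of cells with a *Neurog2* UMI was compared after cells were thinned to 3000 UMIs. Cells with fewer UMIs were left out, among them 12 of 71 negative and 2 of 34 positive cells in 500 nM replicate 2. The *Sstr2* split was the one made at full depth, so depth still entered the choice of cells. At P0 the share among positive cells was 65.2% in the wild type, 54% and 50.7% in the heterozygotes and 51.9% and 56.1% in the knockouts. Among negative cells it was 26%, 30.3%, 34.9%, 15.6% and 26.4%. The groups did not overlap, and the difference was 28.9 percentage points (exact two-sided paired permutation test, p = 0.0625, the smallest possible). In the explants the share was 40.6 to 55.6% of positive and 20 to 34.9% of negative cells, higher in 8 of 8 samples by 21.8 points (exact two-sided paired permutation test, p = 0.00781, the smallest 8 pairs allow, adjusted over 4 tests 0.0312). Without thinning the P0 shares averaged 74.6% and 40.4%, and the explant shares 59.3% and 35.5%. Counting annotated neurogenic progenitors alone, 74.4% of the *Sstr2*-positive P0 cells held *Neurog2*, and 58.1% of the *Neurog2*-positive ones held *Sstr2*. In the explants these were 60.2% and 38.9%.

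The explants gave the same contrast in other animals, at lower depth and in cultured tissue. Of 2627 tested genes, 118 (4.49%) were higher and 128 (4.87%) lower in positive cells, and with matched depth 67 of 1505 (4.45%) were higher and 62 (4.12%) lower. In 16 of the 2627 genes every positive value lay above every negative value across samples, and in 31 every positive value lay below. *Pcdh17* ranged over 326 to 669.8 CPM with a median of 543 in the positive cells and 55.6 to 301 with a median of 141 in the negative cells. All 8 positive values lay above all 8 negative ones (1.82 ± 0.17, adjusted p = 7.03e-09, edgeR quasi-likelihood test). *Neurog2* ranged over 288 to 575 CPM with a median of 371 in the positive cells and 91.0 to 205 with a median of 171 in the negative cells. Its groups did not overlap either (1.22 ± 0.15, adjusted p = 1.16e-06, edgeR quasi-likelihood test). *Atoh7* ranged over 1136 to 3081 CPM with a median of 2509 in the positive cells and 789 to 2052 with a median of 1668 in the negative cells, with overlap across samples and 0.54 ± 0.12 within them.

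*Neurod4* in the explants ranged over 272 to 904 CPM with a median of 393 in the positive cells and 616 to 1062 with a median of 728 in the negative cells, with overlap across samples, and fell by 0.80 on the log2 scale. *Crx* ranged over 0 to 145 CPM with a median of 62.0 in the positive cells and 70.2 to 253 with a median of 168 in the negative cells, also with overlap, and fell by 0.98, with *Otx2* and *Neurod1* falling by 0.39 and 0.64. Of 6 photoreceptor fate markers 5 were lower, with a median of -0.56 against 0.00 over all tested genes. Notch receptors and targets were higher in 4 of 5, with 0.59 for *Hes5*, 0.78 for *Rbpj*, 0.48 for *Notch1* and 1.01 for *Id1*. *Dll1* was again higher (0.53, adjusted p = 0.0429, edgeR quasi-likelihood test). *Penk* ranged over 20.0 to 145 CPM with a median of 70.8 in the positive cells and 10.1 to 53.2 with a median of 18.5 in the negative cells and was below the count filter.

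G2 and mitosis genes were higher in 21 of 27 tested and lower in 0 (edgeR), with a median of 0.73, and their summed share was 1.05 ± 0.202% against 0.605 ± 0.156% (SD, n = 8, higher in 8 of 8). *Ube2c* ranged over 20.0 to 574 CPM with a median of 229.6 in the positive cells and 50.5 to 222 with a median of 66.0 in the negative cells, so that groups overlapped (1.60 ± 0.24, adjusted p = 2.5e-05, edgeR quasi-likelihood test). With matched depth 10 of 20 were higher. Of 18 S phase genes 0 passed the edgeR test in either direction, with 0 higher and 2 lower at an unadjusted p under 0.05, and their median was -0.01. The largest explant rises also held *Fam183b* (1.96 ± 0.23), *Cetn2* (1.36 ± 0.16), a centriole gene, and *Slf1* (1.26 ± 0.21), a DNA damage response gene. *Casz1* (-1.37 ± 0.23), a zinc finger factor of retinal timing, *Cnrip1* (-1.32 ± 0.23), *Dach1* (-1.27 ± 0.20) and *Unc119* (-1.05 ± 0.18), a photoreceptor trafficking gene, were among the largest falls.

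Of 2623 genes tested in both libraries 66.8% had the same sign. Of the 649 of them called at P0, 563 (86.7%) had the same sign in the explants. In all, 198 genes were called in the same direction in both, which was 18.2% of the P0 calls and 80.5% of the explant calls. Of 293 genes higher at P0 99 were called higher in the explants, and of 356 lower 99 were called lower. The 99 higher genes held all 21 G2 and mitosis genes called higher in the explants. The 99 lower genes held all 41 ribosomal protein genes called lower there. *Ddah2*, which breaks down methylarginines and was picked out after its values were seen, was the 1 gene called in opposite directions, with 801 ± 66.3 against 676 ± 78.0 CPM at P0 and 668 ± 169.6 against 837 ± 136 CPM in the explants.

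**Figure D4:**
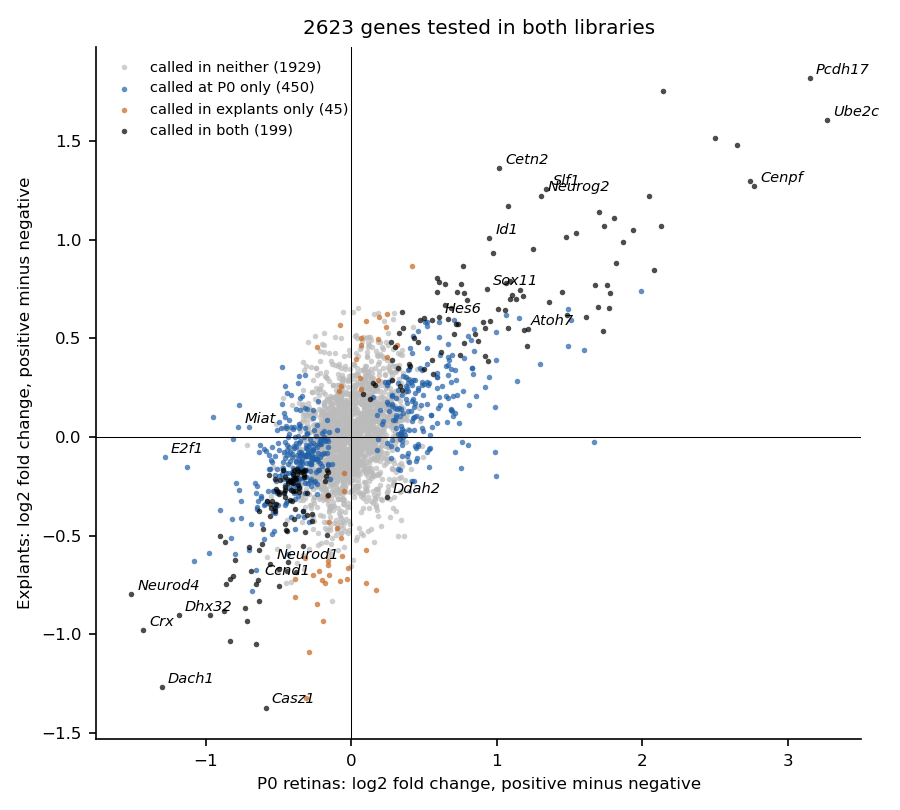
Log2 fold change, positive over negative cells, at P0 (horizontal) and in the explants (vertical) for the genes tested in both libraries, coloured by where they were called. Of 2623 genes, 198 were called in the same direction in both libraries and 1 in opposite directions.

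The difference between the libraries was tested itself. Among 5776 genes, 47 (0.814%) had a positive-over-negative fold change that was higher in the explants and 53 (0.918%) one that was lower. Of the 53, 18 were G2 and mitosis genes, and of the 47, 21 encoded ribosomal proteins. *Ube2c* differed by -1.66 (adjusted p = 5.58e-05, edgeR quasi-likelihood interaction test), *Plk1* by -2.08, *Pcdh17* by -1.32 and *Atoh7* by -0.63, while *Neurod4* differed by 0.73 and *E2f1* by 1.20. *Plk1* was below the count filter when the explants were tested alone, so its explant side rests on low counts. The same holds for some of the 18 G2 and mitosis genes, such as *Pimreg* and *Ckap2*. The libraries also differed in culture, strain, *Sstr2* genotype, agonist treatment, depth and *Sstr2* UMIs per positive cell, which cannot be told apart here.

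No gene passed the test for a contrast that depended on genotype or agonist dose. For the 2 knockout retinas against the other 3 and for 500 against 0 nM, 0 of 6042 and 0 of 2627 genes had a contrast that differed (0% in each, edgeR quasi-likelihood interaction test), with 297 genes (4.92%) and 100 (3.81%) at an unadjusted p under 0.05. With 2 knockout retinas and 2 samples per dose, this does not show that the contrast was alike. Without both knockout retinas 444 genes were higher and 343 lower at P0.

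The same genes were listed by the number of *Sstr2* UMIs in a cell. At P0, cells with 0, 1, 2 and 3 or more *Sstr2* UMIs had mean *Neurog2* levels of 167 ± 31.0, 350.0 ± 68.8, 333 ± 156 and 478 ± 104 CPM (SD over 5 retinas). *Pcdh17* was at 61.5, 368, 351 and 707 CPM, and *Neurod4* at 747, 336, 289.6 and 254 CPM. For both genes the step from 0 to 1 UMI was wider than that from 1 to 2. The summed G2 and mitosis genes were at 6048, 12572, 14663 and 20505 CPM. Median depth also rose with the class, from 6337 through 7441.5 and 8324 to 10016 UMIs. In the explants *Pcdh17* was at 127, 399, 468 and 388 CPM, and G2 and mitosis genes at 6054, 8508, 11187 and 13799 CPM. The classes use the values that chose the cells, and no test was made. A single *Sstr2* UMI can be lost by chance. After cells of at least 3000 UMIs were thinned to 3000 before the split, 202 P0 cells were positive and 462 negative.

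**Figure D5:**
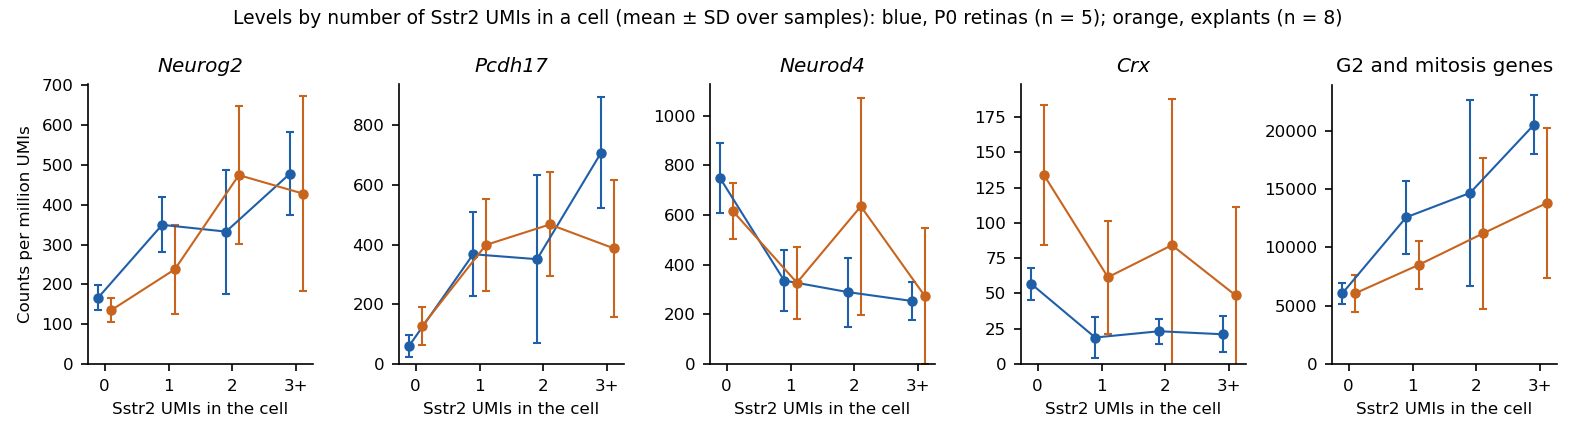
Mean level in CPM of named genes and of the summed G2 and mitosis genes in neurogenic progenitors with 0, 1, 2 and 3 or more *Sstr2* UMIs, at P0 and in the explants, with bars for the SD over samples. *Pcdh17* at P0 was at 61.5 CPM in cells with 0 UMIs and 707 CPM in cells with 3 or more.

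Markers of other retinal types were low in both groups and were not raised as lists in positive cells. Amacrine and horizontal markers took a mean 0.0464% of UMIs in positive and 0.0517% in negative P0 cells, ganglion cell markers 0.0110% and 0.0134%, Muller glia markers 0.0550% and 0.0616%, and markers of blood, microglia, vessel and pigment cells 0.00819% and 0.0118%. Of 21 ganglion cell markers in the P0 counts 5 had 0 UMIs, *Pou4f2*, *Pou4f3* and *Thy1* among them, and of 18 blood, microglia, vessel and pigment markers 7 had 0, *Csf1r* and *Aif1* among them. *Aqp4* and *Gfap*, defining genes of glia, had 0 UMIs in both libraries. In the amacrine list 2 of 7 tested members were higher, *Ptf1a* and *Foxn4*, and 3 were lower. In the bipolar list *Prdm8* rose by 2.06, and *Lhx4* and *Otx2* fell, *Lhx4* by 2.38. Counts were low, with 134 positive and 30 negative UMIs for *Prdm8*, 15 and 73 for *Lhx4*, and 94 and 39 for *Ptf1a*. *Prdm8*, *Lhx4* and *Ptf1a* passed the count filter mainly through the group where they were high, so their fold changes are descriptive.

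Ribosomal protein genes, a list chosen after their values were seen, were lower in positive cells, in 78 of 81 tested at P0 with a median of -0.37 and in 41 of 81 in the explants with -0.18. They took 19.7 ± 0.489% of UMIs in positive and 24.6 ± 0.427% in negative P0 cells (SD, n = 5). Per cell, however, they gave 1925 UMIs in positive and 1721 in negative P0 cells, so the smaller share stood beside a larger number there. In the explants they gave 778 UMIs per positive and 835 per negative cell. Ribosomal protein genes have many near-identical copies, among which reads can be split. Genes of the mitochondrial genome were lower in 9 of 13 at P0 and 4 of 13 in the explants.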

How the data were processed

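The authors aligned reads with Cell Ranger 3.1.0 to mm10, and their notes name Seurat 3. They deposited raw UMI counts for each cell and gene, corrected values as the natural log of 1 + the corrected count (SCTransform), and cell types and samples for each cell. In these single-cell data, the published tests of gene expression between treatments or genotypes compared single cells by rank. Neurogenic progenitors summed to 1008263 to 1230599 UMIs per P0 retina and 181563 to 641331 per explant sample.

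Counts were summed per sample and *Sstr2* group with *Sstr2* removed, filtered (filterByExpr), scaled (TMM) and tested with edgeR 4.0.16 (R 4.3.3), sample as a block, adjusted p under 0.05. In each library the filter asked for enough counts in as many sums as 1 group held. A gene low in 1 group could thus enter through the group where it was high, which favours a gap. DESeq2 1.42.0 and limma 3.58.1 were alternatives. Intervals were not needed, since groups were compared over samples. Replicates are labelled as separate samples, and P0 labels do not say whether retinas of 1 mouse were split. P-values then measure the spread between these samples. A pair is 1 physical sample, and deviations of its positive and negative sums correlated at 0.10 to 0.17 at P0 and -0.03 to 0.12 in the explants. On simulated counts edgeR recovered 90% of 2-fold and 99% of 4-fold changes at P0, with 14 false calls among 6042 genes, and 99% and 100% in the explants, with 9 among 2627. In each simulation 100 genes changed 2-fold and 100 changed 4-fold, with a spread set by the level of the gene alone. More genes were called in the data, so these figures are not error rates of the contrasts.

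Named genes were, per library, the 10 largest rises and falls among called genes of at least 50 CPM moving alike in every sample, called genes of the lists, and a preset list of genes reported whatever their result, except results that are not reported here. Members and lists were chosen with earlier results of these data known. Doublets were not called. Between the P0 and explant libraries 9 cell barcodes were shared, 1 of them neurogenic in both. Promoters are from RefSeq, found for 4780 of 6042 tested P0 genes. No column of another series was used.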

Additional observations from a re-analysis of the deposited data

Results flagged for a closer look

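Among 155 sets of per-sample values tested for a sample far from the others, 5 had one, where chance alone gives about 5%. Most sets were log2 ratios of a gene (positive over negative CPM, with 1 added to each). The rest were differences between the groups in UMIs per cell, *Neurog2* share and share of cell cycle UMIs. All 5 were log2 ratios. *Cdca8* at P0 was lowest in the wild type, at 1.495 against 2.03 to 2.19 in the other retinas. Knockout 2 stood apart for *Gad2*, at 0.14 against -1.17 to -0.81, and for *Gng2*, at 3.28 against 0.38 to 1.02. In the explants *Crx* was lowest in 0 nM replicate 2, at -6.15 against -2.06 to -0.12, where the positive cells held 0 *Crx* UMIs, and *Dll3* was lowest in 50 nM replicate 1, at -1.16 against -0.03 to 0.50.

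The positive-over-negative fold change differed between the libraries in 16 named genes (edgeR quasi-likelihood interaction test). Of these, *Plk1*, *Cdkn2d* and *Peak1* were below the count filter when the explants were tested alone, so their explant side rests on low counts. In log2 units, explants minus P0, the fold change was lower for the mitotic genes *Ube2c* (-1.66), *Plk1* (-2.08), *Cenpf* (-1.50), *Cenpa* (-1.45), *Tpx2* (-1.05), *Cdca8* (-0.88), *Top2a* (-0.99) and *Mki67* (-1.02). It was also lower for *Pcdh17* (-1.32), *Atoh7* (-0.63), *Cdkn2d* (-1.55) and *Ddah2* (-0.53). It was higher for *Peak1* (1.52), *Neurod4* (0.73), *E2f1* (1.20) and *Miat* (0.85). The cause was not tested.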

How the results depend on the processing

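At P0 (599 higher, 487 lower) DESeq2 called 303 and 215, cells thinned to 3000 UMIs 268 and 236, cells matched within 10% 286 and 293, and cells of few cell cycle UMIs 65 and 100. Thinning before the split gave 213 and 186, mean log values with limma 1161 and 261, and corrected counts with limma 1053 higher. In the explants (118 and 128) DESeq2 called 64 and 56, matched cells 67 and 62, cells matched within 10% 66 and 62, thinned cells 67 and 78, thinning before the split 44 and 44, and cells of few cell cycle UMIs 14 and 6. A threshold of 2 UMIs gave 68 higher, and mean log values 80 lower. Without a count filter 34.7% of explant calls were higher, against 48.0% with it. Matched P0 calls went from 458 to 286 higher within 10%, and library differences from 47 and 53 to 21 and 33 with matched cells. The cause was not tested.

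Leaving out 1 sample gave 466 to 543 higher and 397 to 468 lower genes at P0, and 80 to 119 and 90 to 134 in the explants. Explant G2 and mitosis calls then ranged from 14, without 5 nM replicate 2, to 23. Without the replicate block that pairs the positive and negative cells of a sample, 517 and 406 genes were called at P0, and 121 and 109 in the explants.

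At P0, 8 values for named genes turned in direction. In cells of few cell cycle UMIs these were *Ccnd1* (0.14), *Pcna* (0.27), *Mcm6* (0.22) and *Ddah2* (-0.20). With cells matched within 10% they were *Otx2* (0.020), *Hes1* (-1.10) and *Gnai2* (-0.093), and with thinning before the split *Foxn4* (-0.088). Of the other values for named genes at P0, leave-one-out values aside, 1040 were counted as unchanged, 87 lost the call and 9 gained it. In the explants 607 were counted as unchanged, 70 lost the call and 1 gained it. Unchanged values were called in the same direction in both fits, or in neither fit whatever their direction. The explants were limited in that fewer genes passed the filter and *Penk* could not be tested. Their positive sums held 12 to 36 cells and 59631 to 172238 UMIs. At P0 the positive sums held 46 to 71 cells and 443168 to 662522 UMIs. The part of cell number and of depth per cell was not tested.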

Other observations

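Of 22 tested genes of early neurons 3 were higher and 6 lower at P0, and in the explants 1 of 18 was higher and 1 lower. Their summed share of UMIs was nonetheless higher in positive cells. It averaged 0.932% against 0.824% at P0 (higher in 5 of 5) and 0.805% against 0.753% in the explants (8 of 8). *Stmn1*, a regulator of microtubules, was higher in both, by 0.50 and 0.35 on the log2 scale. Of 17 genes of inhibitory G protein signalling, through which Sstr2 acts, 3 were higher at P0 (*Gnai2*, *Gng2* and *Creb1*) and 2 lower. The *Gng2* log2 ratio was 3.28 in knockout 2, against 0.38 to 1.02 in the other retinas. In the explants 0 of 7 were called by edgeR, with 1 at an unadjusted p under 0.05. With cells matched within 10%, 0 of 10 were called at P0. Beside the list counts of this paragraph, 9.91% of all tested P0 genes were higher and 8.06% lower. In the explants these shares over all tested genes were 4.49% and 4.87%. Of 4 tested Hedgehog pathway genes 1, *Gas1*, was higher at P0. Of 10 immediate early genes, which cell dissociation can switch on, 2 were higher and 2 lower at P0, and with cells matched within 10% 1 of 9 was higher and 6 lower. In the explants 0 of 7 were higher and 1 lower. *Apoe*, a lipid carrier gene of glia, was lower in both libraries, with log2 fold changes of -0.83 and -1.03.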
